A study of Mus musculus with 6 samples.

Results

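Large-conductance (BK) and small-conductance (SK) calcium-activated potassium channels, together with the sodium-activated channels of the same superfamily, were examined in the dorsal hippocampus of mice given an antisense oligonucleotide against Snhg11. The set comprised 8 genes, namely the BK pore gene Kcnma1 with its beta subunits Kcnmb2 and Kcnmb4, the SK genes Kcnn1, Kcnn2 and Kcnn3, and the sodium-activated Kcnt1 and Kcnt2. They were listed by name from 55401 genes with deposited counts, and all 8 were among the 19969 genes with enough counts to be tested. The genes were selected on measured values, since the list was made with the difference between Snhg11-ASO and Control-ASO samples already known. Their values in that comparison are therefore given as a description, with no test.

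The samples came from 6 WT male mice, littermates from a Ts65Dn breeding colony on a mixed B6EiC3 background, aged 4 months. Each mouse received 50 μg of oligonucleotide per hemisphere into the dorsal dentate gyrus, and the dorsal hippocampus was taken 3 days later for RNA-seq. Control-ASO (n = 3) is a gapmer with a scrambled sequence, and Snhg11-ASO (n = 3) is a gapmer of the same length that directs cleavage of the Snhg11 RNA, labelled as Snhg11 knockdown. All groups share the surgery and the injected gapmer chemistry. The tissue holds all dorsal hippocampal cells and not the dentate gyrus alone, and nothing in the labels beyond the replicate number says how the replicates were separated.

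The channels share a task: they let potassium leave a neuron after it has fired. BK channels open when depolarisation and a rise in internal calcium coincide, and they speed the repolarisation of the action potential. Their beta subunits do not form a pore but set the calcium sensitivity and the kinetics of the channel, and the neuronal beta4 subunit slows its opening. SK channels lack voltage sensitivity, carry calmodulin as their calcium sensor and can contribute to the medium afterhyperpolarisation that spaces action potentials. Slack and Slick, the products of Kcnt1 and Kcnt2, open with internal sodium.

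Snhg11 was checked first because it is the targeted gene. Its level in CPM, the count scaled to each library's TMM-adjusted size, was 551, 436 and 209 in Control-ASO mice and 139, 65.4 and 69.4 in Snhg11-ASO mice. The groups did not overlap (exact permutation over samples, two-sided p = 0.1, which is the lower limit for 3 against 3). The log2 fold change was -2.13 (SE 0.43; edgeR quasi-likelihood test, unadjusted p = 0.00172, adjusted p = 0.395), and DESeq2 gave an adjusted p of 6.2e-05.

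Counts on genes ranged from 28951250 to 43997537 per sample. The edgeR test called 0 of 19969 genes at an adjusted p under 0.05 (0%), with 1619 genes at an unadjusted p under 0.05 (8.11%), whereas DESeq2 called 258 (1.29%). Snhg11-ASO replicate 1 stood apart, with Spearman correlations across genes of 0.955 to 0.959 with the other samples, compared with 0.979 to 0.991 among those. Values of the channel genes without this sample are given as well.

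Kcnma1 showed the largest difference of the set. Control-ASO mice had 367, 344 and 356 CPM, and Snhg11-ASO mice had 183, 188 and 146 CPM. The groups lay far apart, with the lowest Control-ASO sample well above the highest Snhg11-ASO sample. The Snhg11-ASO mean was 48.5% of the Control-ASO mean, a log2 fold change of -1.04 (SE 0.12). Of all genes tested, 256 (1.28%) had a log2 fold change at or below this value. The gene was counted 6378 to 11980 times per sample, so counting error was at most 1.25% of a value. The annotation lists 38 transcripts of Kcnma1, and the gene-level counts do not separate its splice variants.

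The auxiliary BK subunits lay closer together between the groups. Kcnmb4, which encodes the neuronal beta4 subunit, had 21.1, 21.8 and 21.2 CPM in Control-ASO mice compared with 21.8, 20.6 and 18.6 CPM in Snhg11-ASO mice. The groups overlapped, and the log2 fold change of -0.07 (SE 0.11) was -0.13 without Snhg11-ASO replicate 1 and -0.01 without Snhg11-ASO replicate 3. Kcnmb2, which encodes the beta2 subunit that gives BK channels fast inactivation, had 5.95, 4.04 and 3.65 CPM in Control-ASO mice compared with 2.18, 2.68 and 3.76 CPM in Snhg11-ASO mice. Its groups overlapped because Snhg11-ASO replicate 3 was above Control-ASO replicate 3. The log2 fold change was -0.66 (SE 0.30), and with replicates 2 and 3 of both groups only it was -0.26. Kcnmb2 was counted 83 to 175 times per sample, which gives a counting error of 7.56% to 11% of a value.

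**Figure D1:**
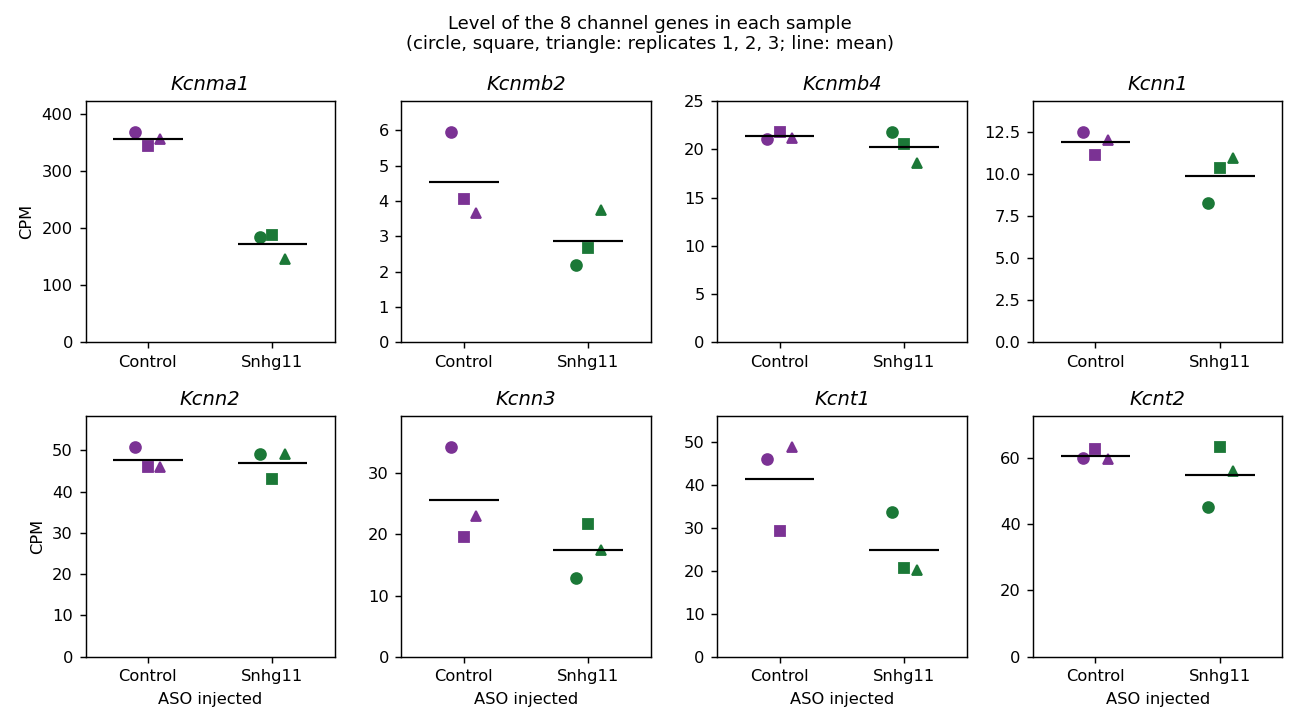
Level in CPM (y axis, from 0, with its own scale for each gene) of the 8 channel genes in the Control-ASO and Snhg11-ASO samples (x axis). Points are samples, with circles, squares and triangles for replicates 1, 2 and 3, and lines are group means (n = 3); Kcnma1 and Kcnn1 are the genes whose groups do not overlap.

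Among the SK genes, Kcnn2 was the most abundant per length. Kcnn2 encodes SK2, the SK subunit of hippocampal pyramidal neuron spines, and had 50.8, 46.0 and 45.9 CPM in Control-ASO mice compared with 49.0, 43.0 and 49.1 CPM in Snhg11-ASO mice. Its groups overlapped, with a log2 fold change of -0.02 (SE 0.10). Kcnn1, which encodes SK1, had 12.5, 11.1 and 12.02 CPM in Control-ASO mice, and 8.26, 10.3 and 10.9 CPM in Snhg11-ASO mice. The groups of Kcnn1 did not overlap but lay close together, and the log2 fold change of -0.27 (SE 0.15) was -0.16 without Snhg11-ASO replicate 1 and -0.12 with replicates 2 and 3 of both groups only. Kcnn3, which encodes SK3, had 34.2, 19.6 and 23.0 CPM in Control-ASO mice compared with 12.9, 21.7 and 17.4 CPM in Snhg11-ASO mice. Control-ASO replicate 1 was the highest and Snhg11-ASO replicate 1 the lowest sample of Kcnn3, and the log2 fold change of -0.56 (SE 0.26) was -0.30 without Control-ASO replicate 1 and -0.13 with replicates 2 and 3 of both groups only.

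The sodium-activated genes were both expressed. The Slack gene Kcnt1 had 46.1, 29.2 and 48.8 CPM in Control-ASO mice compared with 33.7, 20.6 and 20.2 CPM in Snhg11-ASO mice. In Kcnt1 the groups overlapped through Control-ASO replicate 2 and Snhg11-ASO replicate 1, and the log2 fold change was -0.74 (SE 0.27), or -1.02 without Snhg11-ASO replicate 1. The Slick gene Kcnt2 had 59.8, 62.5 and 59.5 CPM in Control-ASO mice compared with 45.2, 63.2 and 56.0 CPM in Snhg11-ASO mice. Its groups overlapped, with Snhg11-ASO replicate 2 the highest and Snhg11-ASO replicate 1 the lowest of all samples, and the log2 fold change of -0.15 (SE 0.13) was -0.02 without Snhg11-ASO replicate 1 and -0.26 without Snhg11-ASO replicate 2. Within each sample Kcnt2 exceeded Kcnt1 per exonic kb, by 1.79, 2.94 and 1.68 times in Control-ASO mice and by 1.85, 4.24 and 3.83 times in Snhg11-ASO mice, and these ratios overlapped.

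All 8 genes had a lower estimate in Snhg11-ASO, 7 of 8 once Control-ASO replicate 1, Snhg11-ASO replicate 2 or both replicates 1 were left out, and the set had a median log2 fold change of -0.42 compared with 0.01 over all genes tested. The groups did not overlap for 2 of the 8, both lower, where 7.7% of all genes tested were lower without overlap, and for 0 of the 8 in the higher direction, where the background was 7.73%. Without Snhg11-ASO replicate 1 the count was 4 of 8, namely Kcnma1, Kcnmb4, Kcnn1 and Kcnt1, against a background of 13.5%, and the median log2 fold change of the set was -0.27. The estimates were then -1.09 for Kcnma1, -0.49 for Kcnmb2, -0.39 for Kcnn3 and -0.05 for Kcnn2. With replicates 2 and 3 of both groups only, the median log2 fold change of the 8 genes was -0.13, while that of Kcnma1 was -1.07. Since the genes were listed with this comparison known, nothing is read from these counts.

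Levels of different genes were compared after division by the merged length of all annotated exons (CPM per exonic kb). On this scale the Control-ASO samples gave 20.9 ± 0.69 for Kcnma1 (SD, n = 3), followed by 8.79 ± 0.24 for Kcnt2. Kcnmb4 and Kcnn2 came next at 6.43 ± 0.11 and 6.37 ± 0.37 CPM per exonic kb, and these neighbours did not differ beyond their spread. Kcnt1 stood at 4.35 ± 1.11, Kcnn1 at 2.59 ± 0.15, Kcnn3 at 2.45 ± 0.73 and Kcnmb2 at 1.45 ± 0.39 CPM per exonic kb, and the samples of Kcnn1 and Kcnn3, and of Kcnn3 and Kcnmb2, overlapped. Within each Control-ASO sample, however, Kcnn3 was above Kcnmb2. In the Snhg11-ASO samples the levels were 10.2 ± 1.35 for Kcnma1 and 7.95 ± 1.32 CPM per exonic kb for Kcnt2, and the ranges of these genes overlapped there. Within each Snhg11-ASO sample Kcnma1 was still above Kcnt2, by 1.65, 1.21 and 1.06 times. The summed level of the SK genes was 11.4 ± 1.22 CPM per exonic kb in Control-ASO and 10.1 ± 0.51 in Snhg11-ASO samples. Kcnn2 supplied 56.0% ± 2.85 of this sum in Control-ASO and 62.4% ± 5.66 in Snhg11-ASO samples (SD, n = 3).

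The contrast between the BK pore and its beta subunits was then read within each sample, where library scaling cancels out. Kcnma1 exceeded Kcnmb4 by 3.41, 3.09 and 3.28 times per exonic kb in Control-ASO mice and by 1.65, 1.79 and 1.54 times in Snhg11-ASO mice. The groups did not overlap, and the ratio of Kcnmb4 to Kcnma1 was 1.97 times higher in Snhg11-ASO samples (difference of the mean log2 ratios 0.98; SD 0.07 in Control-ASO and 0.11 in Snhg11-ASO, n = 3 each). Kcnmb2 gave no such separation: Kcnma1 exceeded it by 11.4, 15.7 and 17.9 times in Control-ASO mice and by 15.5, 12.9 and 7.17 times in Snhg11-ASO mice. These groups overlapped, with a difference of the mean log2 ratios of Kcnmb2 to Kcnma1 of 0.39 (SD 0.34 and 0.58). As a difference of log2 fold changes this contrast rested on single samples, at 0.04 without Snhg11-ASO replicate 3, 0.60 without either replicate 1 and 0.81 with replicates 2 and 3 of both groups only. For the SK2 gene the groups also separated, as the ratio of Kcnn2 to Kcnma1 was 0.314, 0.304 and 0.294 in Control-ASO mice and 0.608, 0.520 and 0.764 in Snhg11-ASO mice. These ratios all carry Kcnma1 as their denominator and are not separate observations.

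**Figure D2:**
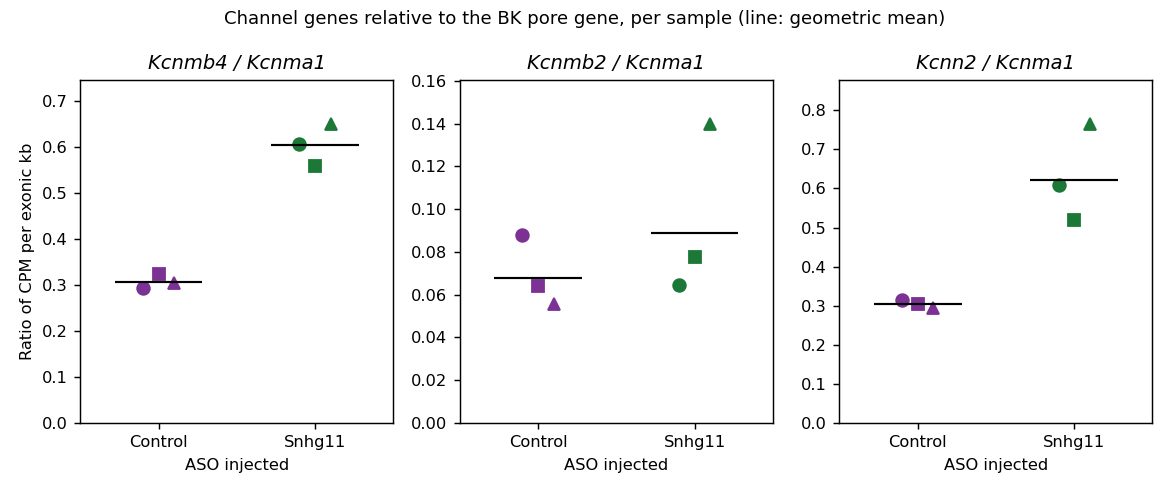
Ratio of CPM per exonic kb (y axis, from 0) of Kcnmb4, Kcnmb2 and Kcnn2 to Kcnma1 in the Control-ASO and Snhg11-ASO samples (x axis). Points are samples, with circles, squares and triangles for replicates 1, 2 and 3, and lines are geometric means (n = 3); the groups separate for Kcnmb4 and Kcnn2 and overlap for Kcnmb2.

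The start regions of Kcnma1 and Kcnmb4 bear on how these genes were counted, because at both an RNA gene is annotated on the opposite strand. Kcnma1 (ENSMUSG00000063142) lies on the minus strand of chromosome 14 of GRCm38, from 23289431 to 24014491. Kcnmb4 (ENSMUSG00000054934) lies on the minus strand of chromosome 10, from 116417861 to 116473878. The 250 bases before the RefSeq start of each gene (GRCm38.p6, minus strand, 5′ to 3′) are shown with GC boxes in capitals, written GGGCGG on either strand. Both windows lie inside the annotated spans given above, so these RefSeq starts are not the outermost annotated starts of the counted genes. RefSeq promoters were at hand for 6 of the 8 genes.
Kcnma1, chr14:24004206-24004455: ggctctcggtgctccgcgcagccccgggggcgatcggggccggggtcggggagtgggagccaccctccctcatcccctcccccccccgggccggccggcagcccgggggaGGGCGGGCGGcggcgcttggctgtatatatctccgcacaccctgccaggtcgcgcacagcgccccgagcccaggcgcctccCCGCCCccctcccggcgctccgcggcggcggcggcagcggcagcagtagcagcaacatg
Kcnmb4, chr10:116473524-116473773: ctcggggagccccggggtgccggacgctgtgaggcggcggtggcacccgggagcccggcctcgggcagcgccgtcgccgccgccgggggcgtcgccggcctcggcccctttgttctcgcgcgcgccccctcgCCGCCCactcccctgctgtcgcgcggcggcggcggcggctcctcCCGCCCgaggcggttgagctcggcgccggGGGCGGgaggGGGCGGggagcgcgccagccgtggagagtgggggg
These windows hold 79.2% and 83.6% G and C, compared with a median of 52.4% over 32851 promoters. The GC box, overlapping matches included, was found 3 times in the window of Kcnma1 and 4 times in that of Kcnmb4, and 32.7% of all promoters of this length hold it at least once. Neither window held the exact TATA box string TATAAA (in 12.4% of promoters) or the E-box CACGTG (in 6.02%). Looser forms of the TATA box were not searched, and the window of Kcnma1 holds the string tatatat.

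Both windows lie entirely within an exon of the gene on the opposite strand. At Kcnma1 this gene is 4930519K11Rik, annotated as a bidirectional promoter lncRNA, with an exon from 24003844 to 24005137. It was counted 23, 29 and 21 times in Control-ASO mice and 36, 39 and 39 times in Snhg11-ASO mice. In CPM this is 0.782, 0.862 and 0.623 against 0.944, 0.933 and 0.893, higher without overlap, but the log2 fold change of 0.29 (SE 0.26) did not pass the test (edgeR, adjusted p = 0.796). At Kcnmb4 the gene is Kcnmb4os2, an antisense RNA with an exon from 116473163 to 116474633. It had 0.782, 1.01 and 0.891 CPM compared with 0.865, 0.933 and 0.825 CPM, with overlapping groups and a log2 fold change of -0.03 (SE 0.25, edgeR adjusted p = 0.980).

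The antisense exons set how much of each gene could be counted without strand information. Counts of both strands together kept 13.2% of the strand-resolved counts of Kcnmb4, since a second antisense gene, Kcnmb4os1, also covers part of its exons and shared read pairs are then assigned to neither gene. Of the strand-resolved counts of Kcnma1 such counting kept 96.6%, and of those of Kcnn2 76.9%. On the unstranded counts the log2 fold change of Kcnmb4 was -0.26 (SE 0.26) and its difference from that of Kcnma1 was 0.79. The strand-resolved counts used throughout held 96.2% to 99.97% of the members' reads on the strand of the gene.

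In all, 14 annotated genes overlap the spans of the channel genes, 10 of them wholly nested, and 6 of the 14 had enough counts to be tested. The edgeR and DESeq2 tests called 0 of these 6. In edgeR 1 was at an unadjusted p under 0.05, compared with 8.11% of all genes tested. That gene, AC121957.1, is a transcribed pseudogene on the strand opposite to Kcnn2 and had 3.33, 3.24 and 2.05 CPM in Control-ASO mice compared with 1.21, 1.89 and 1.92 CPM. Its groups were close but did not overlap, as for the 7.7% of all genes tested that were lower without overlap. The estimate for it was a log2 fold change of -0.78 (SE 0.30, edgeR adjusted p = 0.586), while that of Kcnn2 itself was -0.02. Gm37834, an unclassified transcript on the strand of Kcnmb2 within its intron, had a log2 fold change of -0.38 (SE 0.38, edgeR adjusted p = 0.822), and Gm37777, in the same position in Kcnt2, had -0.07 (SE 0.30, edgeR adjusted p = 0.966). Reads of unspliced host RNA can be counted on both.

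The channel genes differ widely in genomic length, and most genes of long span were lower in Snhg11-ASO. Kcnma1 spans 725 kb, Kcnn2 417 kb, Kcnt2 366 kb and Kcnmb2 298 kb. Kcnt2 (ENSMUSG00000052726) lies on the plus strand of chromosome 1 from 140246158 to 140612067 (GRCm38), and Kcnmb2 (ENSMUSG00000037610) on the plus strand of chromosome 3 from 31902507 to 32200180. The shorter genes are Kcnn3 (ENSMUSG00000000794; chromosome 3, 89520164 to 89675132, 155 kb), Kcnt1 (ENSMUSG00000058740; chromosome 2, 25863734 to 25918273) and Kcnn1 (ENSMUSG00000002908; chromosome 8, 70842049 to 70863258, 21.2 kb). Of all genes tested, 986 spanned over 200 kb, and 736 of these were lower in Snhg11-ASO, with a median log2 fold change of -0.17. Of these long genes, 21 had a log2 fold change at or below that of Kcnma1. After each sample's trend with genomic span was removed, the log2 fold change was -0.74 (SE 0.10) for Kcnma1, 0.20 (SE 0.11) for Kcnn2 and 0.05 (SE 0.12) for Kcnt2, so that 6 of the 8 estimates were below 0. The difference between Kcnmb4, which spans 56.0 kb, and Kcnma1 was then 0.66. Kcnt1 spans only 54.5 kb and stayed at -0.75 (SE 0.26).

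**Figure D3:**
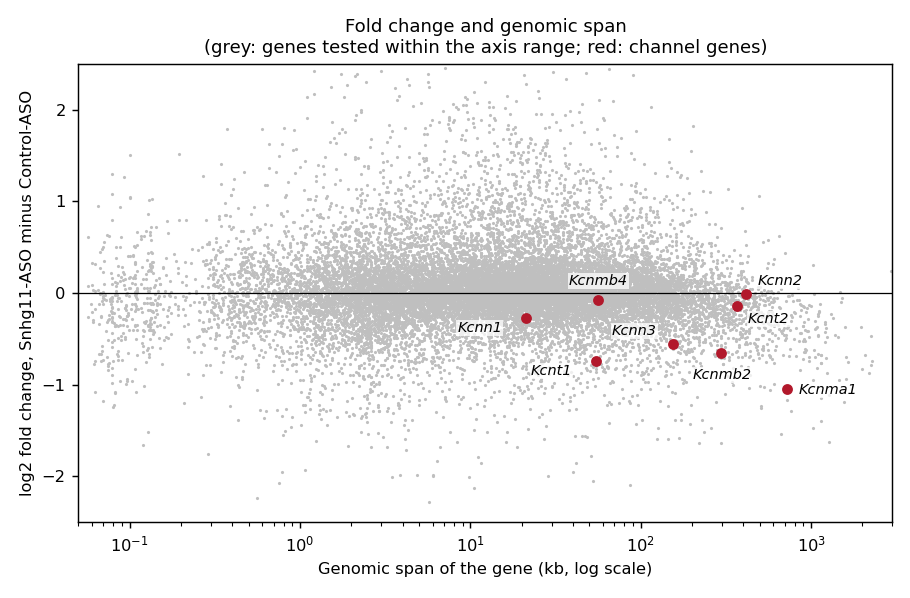
Log2 fold change of Snhg11-ASO minus Control-ASO (y axis) against genomic span in kb (x axis, log scale) for the genes tested (grey) and the 8 channel genes (red, n = 3 samples per group). The y axis leaves out 71 genes beyond its range; long genes sit below 0 on average, with a median of -0.17 over 200 kb, and Kcnma1 lies below most of them at -1.04.

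Genes that act with these channels were taken from 4 lists, 45 genes in all, of which 42 could be tested. In Snhg11-ASO 29 were lower and 13 higher, with a median log2 fold change of -0.14, and edgeR called 0 of the 42 at an adjusted p under 0.05. At an unadjusted p under 0.05 there were 4 lower and 1 higher genes, compared with 8.11% of all genes tested in the same fit. Over the alternative settings the number ranged from 3 to 9. It was 9 with the replicate block. For none of these alternatives is the share of all genes given, so nothing is read from this range. DESeq2 called 2, Kcnq5 among them.

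The first list held the other members of the BK and SK families. Kcnmb3 was counted 0 times in every sample, and Lrrc26 and Lrrc52, BK gamma subunits, at most 3 and 5 times, so these could not be tested. Lrrc55, a BK gamma subunit, was the one gene of this list with an appreciable level, at 19.6 ± 6.55 CPM in Control-ASO and 19.1 ± 6.30 in Snhg11-ASO samples (SD, n = 3). Its log2 fold change was -0.04 (SE 0.33, edgeR adjusted p = 0.981). Kcnmb1, the smooth muscle beta1 subunit, had 0.451 ± 0.14 CPM compared with 0.595 ± 0.49 CPM, and its groups overlapped. Kcnn4, the intermediate-conductance channel of blood and epithelial cells, was counted 11, 3 and 3 times against 25, 21 and 15 times, and its groups overlapped in CPM (log2 fold change 1.46, SE 0.61, edgeR adjusted p = 0.611). Lrrc38 was counted 12, 18 and 25 times against 10, 17 and 13 times and was lower without overlap in CPM (log2 fold change -0.80, SE 0.36, edgeR adjusted p = 0.638), and Kcnu1, the sperm channel of the Slo family, had a log2 fold change of -0.39 (SE 0.30, edgeR adjusted p = 0.766).

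The list of calcium sources, with the pore subunits of voltage-gated calcium channels, NMDA receptor subunits and calcium release channels, had 13 of 14 genes lower and a median log2 fold change of -0.18. None passed the test, 0 were at an unadjusted p under 0.05 in edgeR, and DESeq2 called 0. With the replicate block, in which same-numbered samples are paired, edgeR also called 0, with 4 of the 14 at an unadjusted p under 0.05. The share of all genes at that level in the block fit is not given, so nothing is read from this count. These 4 are named here after their values were seen, and without pairing the groups of each overlapped in CPM. Cacna1b (log2 fold change -0.38, SE 0.10), Cacna1i (-0.29, SE 0.10) and Itpr1 (-0.28, SE 0.09) were lower in 3 of 3 pairs, and Cacna1h (0.28, SE 0.09) was higher in every pair (edgeR adjusted p from 0.484 to 0.557). Other genes of the list, Grin2a and Grin2b among them, were also lower in every same-numbered pair. The direction within pairs therefore does not set the named genes apart. The most abundant were Grin2b, at 1285 ± 224 CPM in Control-ASO and 1105 ± 216 in Snhg11-ASO samples (log2 fold change -0.22, SE 0.19), and Grin2a (-0.14, SE 0.17), both NMDA receptor subunits. The median span of this list was 383 kb, in the range where long genes were lower as a whole. The part of span in the values of this list was not tested.

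The list of proteins that bind or modify the channels was divided, with 7 of 16 genes lower, 9 higher and a median log2 fold change of 0.06. The calmodulin gene Calm3 had a log2 fold change of -0.05 (SE 0.19). Dlg1, which encodes the scaffold SAP97, had 114, 103 and 151 CPM compared with 98.9, 95.2 and 91.9 CPM. Its groups did not overlap, and the log2 fold change of -0.36 (SE 0.15) did not pass the test (edgeR, adjusted p = 0.596). Lingo1, a membrane protein that associates with BK channels, was higher without overlap, at 88.5 ± 1.12 CPM against 99.5 ± 8.15 (log2 fold change 0.17, SE 0.09, edgeR adjusted p = 0.678). Csnk2a1, a catalytic subunit of casein kinase 2, was likewise higher, by 0.07 on the log2 scale (SE 0.08, edgeR adjusted p = 0.835).

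The other channels of the repolarisation and afterhyperpolarisation phase gave 6 of 7 genes lower and a median log2 fold change of -0.24. Kcnq5, an M-current pore subunit, had 92.2, 79.8 and 76.3 CPM in Control-ASO mice compared with 52.1, 59.7 and 43.5 CPM in Snhg11-ASO mice, without overlap (log2 fold change -0.68, SE 0.14; adjusted p = 0.397 in edgeR and 0.00892 in DESeq2). Kcnd2, the A-type channel Kv4.2, had -0.46 (SE 0.16, edgeR adjusted p = 0.551). The M-current subunit gene Kcnq3, among the most abundant of this list, had a log2 fold change of -0.06 (SE 0.13). After removal of the trend with span the values were -0.42 for Kcnq5 and -0.21 for Kcnd2.

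**Figure D4:**
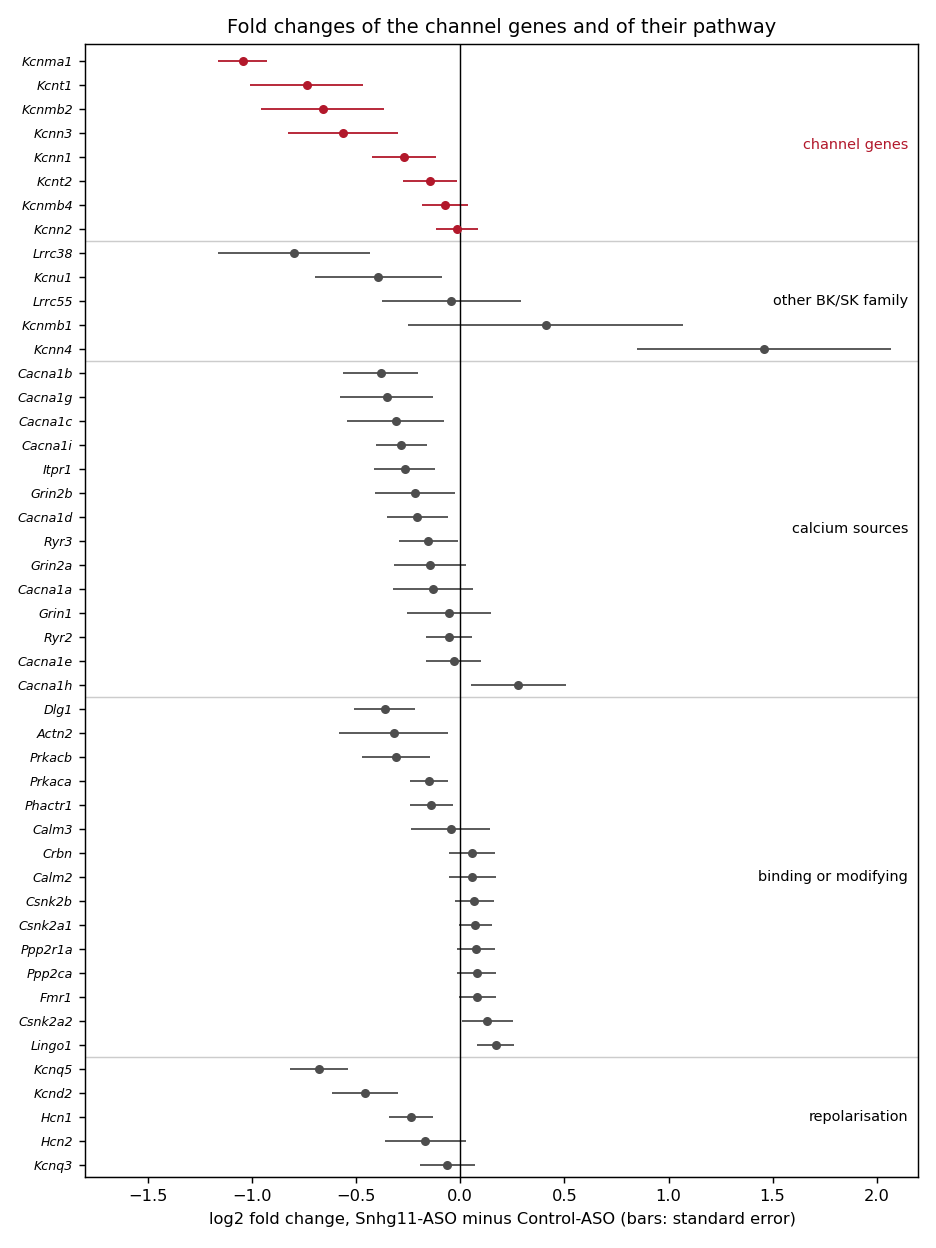
Log2 fold change of Snhg11-ASO minus Control-ASO (x axis) for the 8 channel genes (red) and 39 tested genes of the 4 lists of partner genes (grey), one gene per line. Points are edgeR estimates and bars their standard errors (n = 3 samples per group); of the genes shown, Kcnma1 lies below -1 and Kcnn4 above 1.

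Genes whose pattern over the 6 samples was most like that of Kcnma1 were ranked by the root mean square difference of their centred log2 CPM. Since the pattern of Kcnma1 holds its known group difference, the ranking favours genes with a like difference and is a description only. The nearest was Macrod2 at 0.134, followed by Apba1 at 0.137, Mir344 at 0.143, Gm43829 at 0.145 and 9330162G02Rik at 0.159. All of these were lower in Snhg11-ASO without overlap, with log2 fold changes from -0.83 for Macrod2 to -1.22 for Gm43829. Apba1, a presynaptic scaffold gene, had 163, 144 and 139 CPM in Control-ASO mice compared with 85.2, 83.3 and 77.7 CPM in Snhg11-ASO mice. Mir344 rests on 10 to 22 counts per sample. Of the other channel genes the nearest was Kcnt1, at rank 406 of 19968 genes, followed by Kcnn3 at rank 1124 and Kcnmb2 at rank 1483. Kcnn2 was the farthest, at rank 6373.

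Cell type markers were read beside these values, since in bulk tissue fewer cells of a type and less RNA per cell cannot be told apart. All genes of the 10 marker lists were detected, none at 0, and the neuron markers were present at a summed 3245 to 4194 CPM. The 6 interneuron markers (Gad1, Gad2, Slc32a1, Pvalb, Sst and Vip) were all lower in Snhg11-ASO, with a sum of 411 to 453 CPM in Control-ASO and 340 to 388 CPM in Snhg11-ASO samples, without overlap. This was the only one of the 10 lists whose sums did not overlap. All 5 neuron markers were lower as well, at a summed 3828 to 4194 CPM against 3245 to 3934 CPM, with overlap. All 5 oligodendrocyte markers were higher, with a median log2 fold change of 0.27, and their sums overlapped at 1301 to 2377 against 1176 to 2891 CPM. The summed pyramidal and granule cell markers overlapped between groups, at 313 to 360 against 282 to 376 CPM and at 240 to 286 against 248 to 318 CPM. Each of these lists was divided, with 3 genes lower and 2 higher. Choroid plexus markers, 5 of 5 lower, varied from 36.1 to 1878 CPM in Control-ASO and from 67.0 to 1289 CPM in Snhg11-ASO samples. Microglia markers were lowest in Snhg11-ASO replicate 1, at 74.6 CPM. That sample was also the lowest of all for the neuron, pyramidal cell, oligodendrocyte and astrocyte sums, and the highest for the endothelial cell sum. The part of these cell types in the values of the channel genes was not tested.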

How the data were processed

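RNA-seq libraries (ribo-depleted, strand-specific, paired-end) of 6 dorsal hippocampi were sequenced. Per the labels, the authors aligned reads to mm10 (GRCm38) with STAR 2.5.2a, and the deposited values are raw counts of read pairs per gene, given unstranded and by strand; the methods name Rsubread for quantification, and the annotation release was not given in the sources used here. Lines that name no gene held 43.5% to 51.4% of pairs and were left out. STAR drops pairs that fall on several genes or places, which lowers counts of overlapping genes. The methods removed 1 Snhg11-ASO sample without naming it; all were kept here.

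Reverse-strand counts were used. GENCODE M21 matched 55141 of 55401 identifiers. Genes were filtered with filterByExpr (minimum count 10), scaled with TMM and compared with edgeR 4.0.16 (quasi-likelihood test, Benjamini-Hochberg threshold 0.05; R 4.3.3); log2 CPM used a prior count of 2, and each SE is the size of the log2 fold change over the root of its F statistic. DESeq2 1.42.0 was an alternative, as were its size factors, other filters, both strands, a replicate block, a lowess offset for genomic span (fraction 0.3) and leaving out each sample. Intervals of counts cover counting error only. The edgeR and DESeq2 p-values set the difference between groups against the spread between these samples, which both tools moderate across genes.

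The channel genes and all lists were chosen with earlier results of these data known. Named genes were the channel genes, Snhg11, all other family members, in each further list the 2 most abundant genes and up to 4 with the smallest p whose groups did not overlap, nested genes that passed the filter, and the 5 genes most like Kcnma1; Kcnmb4os1, Kcnmb4os2 and the marker genes were named after their values were seen. Some listed genes enter the counts but are not reported here by name or plotted. The deviations of same-numbered samples correlated at 0.297, 0.179 and 0.103 for numbers 1 to 3. Differently numbered samples were not compared in this way, so the check does not show that the numbers mark pairs. The main fit was unpaired, and pairing by number was used only in the alternatives with a replicate block.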

Additional observations from a re-analysis of the deposited data

How the results depend on the processing

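In 15 alternatives the estimate of Kcnma1 stayed between -1.11 and -0.74, and that of Kcnt1 between -1.02 and -0.61. With DESeq2 the number of genes called was 258 in place of 0, that of partner genes 2 in place of 0, and Snhg11 passed the threshold with a log2 fold change of -2.12; over all alternatives the adjusted p of Snhg11 ranged from 6.2e-05 to 0.951. With samples left out in turn, 0 to 2 genes and 0 to 1 partner genes were called, the calls coming without Snhg11-ASO replicate 1. The difference between Kcnmb4 and Kcnma1 of 0.97 between their log2 fold changes was 0.79 with counts of both strands, 0.66 with the span offset and 0.66 with the span offset and replicate block. That between Kcnmb2 and Kcnma1, 0.38, was 0.04 to 0.60 with samples left out in turn. With replicates 2 and 3 of both groups only, an alternative added after seeing that the file names of both replicates 1 have another form, the median of the 8 channel genes was -0.13. Kcnn2 had estimates on both sides of 0, from -0.05 to 0.20.

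Partner genes at an unadjusted p under 0.05 numbered 5. They numbered 9 with the replicate block or with no filter on low counts, and 3 with the span offset or without Control-ASO replicate 3. The share of all genes at that level is given for the main fit only, at 8.11%, so nothing is read from these counts. The replicate block (paired by number) gave -1.05 for Kcnma1 and changed no other call. The cause of these differences between settings was not tested. Among the 8 channel genes Kcnmb2 had the fewest counts, 83 to 175 per sample, while Kcnn4 had 3 to 25.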
